A study of Mus musculus with 4 samples.

Results

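The genes described here are the Wnt ligands, their receptors and extracellular regulators, the transcription factors at the end of the pathway and its feedback genes, compared between the Atoh1-GFP and dNeurog1-GFP cells of the mouse neural tube at E10.5. They were chosen by symbol alone: all Wnt, Frizzled (Fzd), secreted Frizzled-related protein (Sfrp), Dickkopf (Dkk) and R-spondin (Rspo) genes, and Lrp5, Lrp6, Axin1, Axin2, Lef1, Tcf7l1, Tcf7l2, Sp5, Nkd1, Nkd2, Notum, Znrf3 and Rnf43. Tcf7 matched no probe set with a single symbol and was not analysed here. These 54 genes of 18193 with a single gene symbol were read by 107 of 45037 probe sets. Each gene was represented by its probe set with the highest mean over the 4 arrays, and 42 of the 54 passed a filter on low signals.

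All embryos carried a GFP transgene on a background mixed from the B6SJLF1 and ICR strains. In the Atoh1BAC-GFP line, GFP sits in a bacterial artificial chromosome with the Atoh1 locus and marks the population of dorsal interneuron 1 (dI1). In the dNeurog1-GFP line, a Neurog1 enhancer places GFP in the dorsal neural tube, in the cells that form dorsal interneuron 2 (dI2). Neural tube between the limb levels was dissociated with trypsin and sorted by GFP on 1 of 2 kinds of sorter, and the total RNA of each sample was measured on its own array, with 2 biological replicates of each line. The sources used here do not give which sorter served which sample, or how many embryos were pooled. The labels speak of GFP sorted cells, read here as GFP-positive.

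Wnt proteins are secreted, lipid-modified ligands that bind Frizzled receptors and the coreceptors Lrp5 and Lrp6. In the canonical branch this stabilises beta-catenin, which enters the nucleus and activates genes together with TCF/LEF factors. Several of those genes, such as Axin2, Nkd1, Sp5, Notum and Znrf3, feed back on the pathway. In the dorsal neural tube Wnt1 and Wnt3a are made by the roof plate and the cells beside it, and Wnt signals are known there for sustaining progenitor division and dorsal fates.

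The signals are MAS5 intensities. As deposited, both replicate 1 arrays had a trimmed mean of 250.001 and both replicate 2 arrays one of 500.003, so all were brought to a trimmed mean of 500 here, and log2 differences are of log2(signal + 32), Atoh1-GFP minus dNeurog1-GFP. This scale understates the change of dim genes, and the signals of different probe sets are not comparable with each other. The labels name no batch, but each scaling target held 1 array of each line, and arrays of equal replicate number shared a target. Tests are therefore given without the replicate number and with it as a block (unblocked and blocked). Differences are also given within replicate 1 and within replicate 2. Atoh1, which specifies dI1 neurons, gave 21412 and 19675 (Atoh1-GFP) against 1771 and 1861 (dNeurog1-GFP), and Neurog1, a factor of the dI2 domain, had 172 and 176 (Atoh1-GFP) against 1388 and 2469 (dNeurog1-GFP). Of the dI1 markers, 5 of 5 passed as higher in the Atoh1-GFP line when blocked and 4 when unblocked, and of the dI2 markers 4 of 6 passed as lower when blocked and 3 when unblocked.

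Over the Wnt genes, the 2 populations differed in a minority of members, and more of these were lower than higher in the Atoh1-GFP line. With the block, 3 of the 42 genes tested were higher in Atoh1-GFP cells (Nkd1, Wnt3a and Wnt9a), where 2.78% of all 12740 genes tested were. Another 7 were lower there (Sp5, Wnt7b, Fzd7, Wnt4, Tcf7l2, Sfrp2 and Sfrp1), where 3.73% of all genes were, and 32 did not pass. Sp5 was tested only because its dNeurog1-GFP signals were high, since both of its Atoh1-GFP signals lay below the filter value of 63.5, and 6 members were lower without it. In either direction, with Sp5 included, 10 members passed, or 23.8%, beside 6.51% of all genes. Without the block only Nkd1 passed, with 0.126% of all genes called higher, and 0 members were called lower, with 0.0942% of all genes. At an unadjusted p under 0.05 the same limma model without the block counted 3 members higher and 7 lower (Sp5 among them), where 8.59% of all genes passed. The split of all genes called without the block was 16 higher and 12 lower, and it moved with the scaling: 1 and 12 as deposited, 7 and 11 on one 75th percentile and 17 and 9 after quantile normalization. Leaving out 1 array at a time, unblocked, gave 4 members without Atoh1-GFP replicate 1 (Fzd7, Nkd1, Tcf7l2 and Wnt7b) and 6 without Atoh1-GFP replicate 2 (Fzd7, Nkd1, Sfrp2, Sp5, Wnt3a and Wnt4). It gave 4 without dNeurog1-GFP replicate 1 (Fzd7, Nkd1, Wnt4 and Wnt7b) and 2 without dNeurog1-GFP replicate 2 (Nkd1 and Wnt7b), with the lone array of a line assumed to vary like the others.

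The median log2 difference of the 42 genes was -0.19 (-0.14 within replicate 1 and -0.32 within replicate 2), against 0.01 over all genes. The groups did not overlap in 7 members that were higher and 14 that were lower in Atoh1-GFP cells, or 16.7% and 33.3% of members, beside 15.9% and 18.8% of all genes. In both replicate numbers at least 2-fold differences were found for 2 members higher in Atoh1-GFP cells (Nkd1 and Wnt3a), beside 1.11% of all genes, and for 6 lower there, beside 1.15%. Those 6 were Sp5, Wnt7b, Fzd7, Wnt4, Tcf7l2 and Sfrp2. Sp5, which is also among the 14, entered these counts only through its dNeurog1-GFP arrays. Over 10 simulations, the mean share of unchanged genes among the calls of the blocked model was 18.7% (7.07% to 24.7%) with gene spreads taken from these arrays. It was 6.61% (1.6% to 16.5%) with spreads drawn from the fitted prior, again over 10. Both means lie above the threshold of 0.05, the second with a range on both sides of it, so the blocked p-values may be too small. Unblocked, the means were 8.92% and 3.46%. The simulated arrays held no replicate effect and fewer changed genes than were called here with the block, so these shares need not be those of these data. The members called with the block also passed through an estimate of the spread that depends on signal intensity. With a spread that does not depend on intensity, 0 of the 42 passed with the block (adjusted p from 0.060 for Nkd1 to 0.15 for Sfrp1) and 0 without it.

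**Figure D1:**
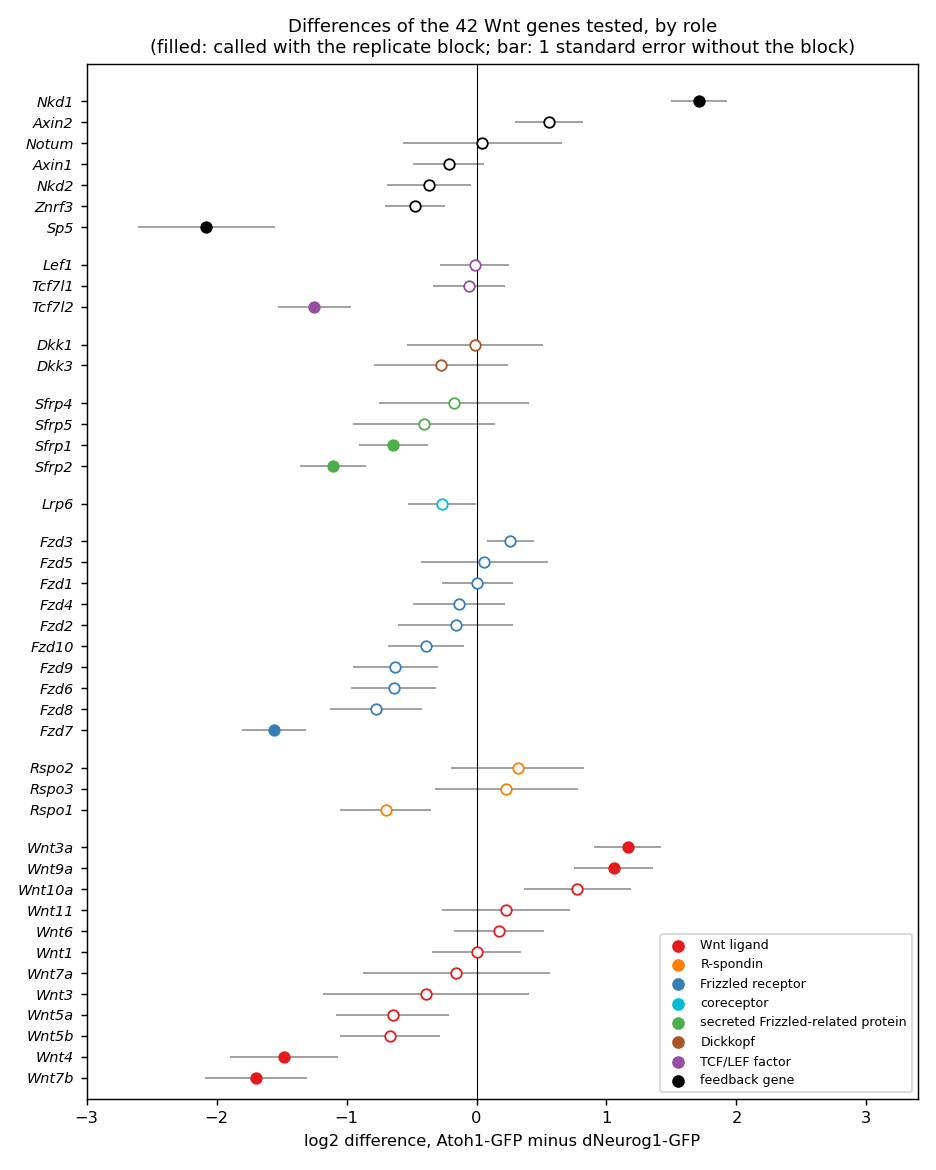
Log2 difference (Atoh1-GFP minus dNeurog1-GFP) of the 42 Wnt genes tested, grouped by role. Filled points passed with the replicate block, and bars are 1 standard error without it. Nkd1, at 1.71, lies at the right end and Sp5, at -2.08, at the left end of the same role, the feedback genes.

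Of 19 Wnt ligand genes, 12 passed the filter, and with the block 2 were higher and 2 were lower in the Atoh1-GFP population. Wnt3a, a canonical ligand of the dorsal midline, had signals of 904 and 708 (Atoh1-GFP) against 373 and 309 (dNeurog1-GFP). Both Atoh1-GFP arrays were above both dNeurog1-GFP arrays, a 2.24-fold difference (log2 difference 1.16, standard error 0.26, limma adjusted p = 0.18 unblocked and 0.016 blocked). Wnt9a, the gene next to Wnt3a on chromosome 11, had 327 and 468 (Atoh1-GFP) against 153 and 193 (dNeurog1-GFP). Its groups did not overlap either (log2 1.05, adjusted p = 0.039 with the block, 0.31 without it).

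The start sites of Wnt3a and Wnt9a lie 16.2 kb apart on opposite strands, facing away from each other. The other adjacent pairs of Wnt genes were Wnt6 with Wnt10a, Wnt9b with Wnt3 and Wnt10b with Wnt1. Wnt6 and Wnt10a had log2 differences of 0.17 and 0.78, which did not pass. Wnt9b and Wnt10b were below the filter. The 250 bases before the start of both neighbours, 5′ to 3′ from the RefSeq promoter table (GRCm38.p6), are shown because these 2 adjacent ligands were the ones higher in Atoh1-GFP cells. They lie at chr11:59290752-59291001 (minus strand) and chr11:59306680-59306929 (plus strand). Capitals mark CANNTG, the E-box that basic helix-loop-helix factors such as Atoh1 bind, which reads the same on both strands.
Wnt3a: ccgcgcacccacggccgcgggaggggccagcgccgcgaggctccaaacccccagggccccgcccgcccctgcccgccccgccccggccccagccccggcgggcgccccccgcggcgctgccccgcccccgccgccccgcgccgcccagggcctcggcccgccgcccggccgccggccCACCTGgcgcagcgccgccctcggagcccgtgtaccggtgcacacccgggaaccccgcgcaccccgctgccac
Wnt9a: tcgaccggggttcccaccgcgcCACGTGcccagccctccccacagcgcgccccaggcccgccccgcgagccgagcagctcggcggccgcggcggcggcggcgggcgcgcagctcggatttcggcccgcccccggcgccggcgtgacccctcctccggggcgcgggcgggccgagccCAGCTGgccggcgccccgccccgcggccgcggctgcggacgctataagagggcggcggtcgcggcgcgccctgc
The Wnt3a window held 1 E-box and the Wnt9a window held 2, of which 1 had the form CAGCTG. Of all 32851 windows of this length, 66.2% held a CANNTG and 13% that form of it.

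Wnt4 and Wnt7b were the ligands lower in Atoh1-GFP cells. Wnt7b, a ligand of the neural tube's ventricular layer, had signals of 430.0 and 183 (Atoh1-GFP) against 1161 and 844 (dNeurog1-GFP). Both Atoh1-GFP arrays were below both dNeurog1-GFP arrays, and the difference was 3.24-fold (log2 -1.70, standard error 0.39, adjusted p = 0.20 unblocked and 0.012 blocked). Wnt4 had 399 and 918 (Atoh1-GFP) against 1406 and 2189 (dNeurog1-GFP). Its signal was higher on the replicate 2 array of both lines, and the lines did not overlap (log2 -1.48, adjusted p = 0.0089 with the block, 0.29 without it).

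The other 8 ligands tested did not pass. Wnt1, the second midline ligand, had 738 and 368 (Atoh1-GFP) against 557 and 491 (dNeurog1-GFP), so the dNeurog1-GFP arrays lay between the Atoh1-GFP arrays and the log2 difference was 0.00 (0.39 within replicate 1 and -0.39 within replicate 2). Wnt5a, which often acts through the planar polarity branch, had 368 and 225 (Atoh1-GFP) against 726 and 300.2 (dNeurog1-GFP) (adjusted p = 0.14 with the block). Wnt5b had 86.6 and 108 (Atoh1-GFP) against 150.0 and 197 (dNeurog1-GFP). Both Wnt5 genes were lower in Atoh1-GFP cells within each replicate number, and the groups overlapped for Wnt5a only. Wnt10a, at 149.7 and 159.8 (Atoh1-GFP) against 88.8 and 66.3 (dNeurog1-GFP), was higher on both Atoh1-GFP arrays without passing (adjusted p = 0.15 with the block). Wnt6 had 176 and 148 (Atoh1-GFP) against 142 and 138 (dNeurog1-GFP), a small difference without overlap (adjusted p = 0.71 with the block). Wnt11 had 202 and 78.3 (Atoh1-GFP) against 115 and 96.8 (dNeurog1-GFP), and its differences within the replicate numbers were 0.68 and -0.22. Wnt3 had 211 and 40.1 (Atoh1-GFP) against 300.4 and 58.6 (dNeurog1-GFP), so it was far higher on the replicate 1 arrays of both lines than on the replicate 2 arrays. The 7 ligands below the filter (Wnt2, Wnt2b, Wnt8a, Wnt8b, Wnt9b, Wnt10b and Wnt16) had mean signals of 14.8 to 58.1.

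Wnt7a depended on the probe set. The Wnt7a probe set with the highest mean after scaling had signals of 246 and 74.7 (Atoh1-GFP) against 339.7 and 66.6 (dNeurog1-GFP) and a log2 difference of -0.15. The other one kept had 15.9 and 24.2 (Atoh1-GFP) against 240.4 and 391 (dNeurog1-GFP), and both of its Atoh1-GFP arrays were far below both dNeurog1-GFP arrays (log2 difference -2.71, -2.51 within replicate 1 and -2.91 within replicate 2). On the deposited signals the second one has the higher mean of the pair, and Wnt7a was the only member whose representative changed. With it, Wnt7a had adjusted p = 0.095 unblocked and 0.0070 blocked, and 8 members then passed as lower with the block. Both Atoh1-GFP signals of this probe set lie below the filter value, so it was tested through its dNeurog1-GFP arrays alone. Which probe set reads the Wnt7a transcript better was not tested.

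All 10 Frizzled genes passed the filter, with a median log2 difference of -0.27, and Fzd7 alone passed with the block. Fzd7, a receptor for canonical Wnt signals, had signals of 618 and 645 (Atoh1-GFP) against 1671 and 2204 (dNeurog1-GFP). The Atoh1-GFP arrays lay close together at less than the lower dNeurog1-GFP array, a 2.94-fold difference (log2 -1.56, standard error 0.25, adjusted p = 0.085 unblocked and 0.0057 blocked). Fzd6, Fzd8 and Fzd9 were lower on both Atoh1-GFP arrays than on both dNeurog1-GFP arrays, with log2 differences of -0.64, -0.77 and -0.62, and did not pass (adjusted p with the block from 0.15 to 0.18).

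Fzd3, a receptor needed for axon growth and guidance, had 7783 and 9018 (Atoh1-GFP) against 7089.7 and 6891 (dNeurog1-GFP), higher on both Atoh1-GFP arrays (log2 0.26, adjusted p = 0.29 with the block). Fzd10, a receptor of the dorsal neural tube, had 1369.7 and 1280.4 (Atoh1-GFP) against 2259.9 and 1344 (dNeurog1-GFP), where the high value stood on 1 array. Fzd2 had 1295 and 1871 (Atoh1-GFP) against 1085 and 2795 (dNeurog1-GFP), and Fzd1 had 1009.5 and 752 (Atoh1-GFP) against 749 and 1006 (dNeurog1-GFP). Both of these went opposite ways within the replicate numbers on their brightest probe sets. The other kept probe sets of Fzd2 were lower within both, with -0.64 and -0.21 for one and -0.53 and -0.05 for the next. Tested on their own, neither passed (limma adjusted p = 0.13 and 0.34 with the block). Fzd4 and Fzd5 had log2 differences of -0.13 and 0.06. The coreceptor Lrp6 had 1763 and 1246 (Atoh1-GFP) against 1927 and 1655 (dNeurog1-GFP) (adjusted p = 0.30 with the block), and Lrp5 was below the filter.

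Of the R-spondins, which bind Lgr receptors and hold back the ubiquitin ligases Znrf3 and Rnf43, 3 of 4 passed the filter and 0 passed the test (0 at an unadjusted p under 0.05 without the block). Rspo1 had 104 and 122 (Atoh1-GFP) against 182 and 225 (dNeurog1-GFP), below the dNeurog1-GFP arrays on both (adjusted p = 0.14 with the block). Rspo3 had 210.0 and 126 (Atoh1-GFP) against 68.4 and 246 (dNeurog1-GFP), with 1.27 within replicate 1 and -0.81 within replicate 2. Of 8 mesenchyme markers 0 passed (0 at an unadjusted p under 0.05 in limma without the block), and they too differed between the replicate numbers, their median being 1.08 in replicate 1 and -0.42 in replicate 2, and summed signals of 6439.9 and 4448 (Atoh1-GFP) against 2953 and 7156 (dNeurog1-GFP). Their part in the Rspo3 values was not tested.

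Of the 4 secreted Frizzled-related proteins, which bind Wnt proteins outside the cell, 2 passed with the block, Sfrp1 and Sfrp2, both lower in Atoh1-GFP cells. All 4 had negative differences within both replicate numbers (median -0.52). Sfrp2 had signals of 1227 and 1599.9 (Atoh1-GFP) against 2666 and 3488 (dNeurog1-GFP). The groups were well apart and the difference was nearly the same in both replicate numbers (-1.10 and -1.11), 2.15-fold in all (log2 -1.10, adjusted p = 0.20 unblocked and 0.0072 blocked). Sfrp1 had 1099 and 774 (Atoh1-GFP) against 1599.9 and 1326 (dNeurog1-GFP), a smaller difference without overlap (log2 -0.64, adjusted p = 0.046 with the block, 0.57 without it). Sfrp4 and Sfrp5 had -0.17 and -0.40 and overlapped between the groups. Of the Dickkopf genes, Dkk1, an antagonist of the Lrp coreceptors, and Dkk3, the divergent member of the family, passed the filter, with -0.01 and -0.27, and neither passed the test.

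Among the TCF/LEF factors only Tcf7l2 passed. It had signals of 486 and 315 (Atoh1-GFP) against 1059 and 898 (dNeurog1-GFP), lower on both Atoh1-GFP arrays, a 2.38-fold difference (log2 -1.25, standard error 0.28, adjusted p = 0.19 unblocked and 0.014 blocked). Lef1 had 411 and 568 (Atoh1-GFP) against 452 and 527 (dNeurog1-GFP) and a log2 difference of -0.01. Tcf7l1, mainly a repressor, had -0.06.

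Of 7 feedback genes tested, 1 passed as higher and 1 as lower in the Atoh1-GFP line, blocked. Nkd1, a cytoplasmic inhibitor that binds Dishevelled, had signals of 3464 and 3631 (Atoh1-GFP) against 1103 and 1022 (dNeurog1-GFP). The 2 arrays of each line were close together and the lines far apart, a 3.27-fold difference (log2 1.71, standard error 0.22 unblocked and 0.12 blocked). It was the member that passed in both models, at adjusted p = 0.048 and 0.0029. Without the block this value lay just inside the threshold. It became 0.076 on one 75th percentile, 0.052 with no filter, 0.057 with a filter at the 60th percentile, 0.13 with the mean of its probe sets, 0.22 with the second brightest, 0.22 with no intensity trend and 1.0 on the signals as deposited, and ranged from 0.00016 to 1.0 over the 15 alternatives without the block.

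Sp5, a zinc finger factor that represses Wnt target genes, had signals of 10.8 and 58.3 (Atoh1-GFP) against 224 and 237 (dNeurog1-GFP). The dNeurog1-GFP arrays were alike, and both Atoh1-GFP arrays were below the filter value, so no fold is given. The gene entered the test through its dNeurog1-GFP arrays alone, and its fitted log2 difference of -2.08 (standard error 0.53, adjusted p = 0.25 unblocked and 0.023 blocked) depends on the value of 32 added before the logarithm. Axin2, a scaffold of the destruction complex, had 3031 and 3356 (Atoh1-GFP) against 2645 and 1753 (dNeurog1-GFP). Its groups did not overlap, but the difference lay mostly in replicate 2 (0.92, against 0.19 in replicate 1) and did not pass (log2 0.56, adjusted p = 0.15 with the block). Axin1, its constitutive relative, had 816 and 1194 (Atoh1-GFP) against 1044 and 1267 (dNeurog1-GFP), with overlap. Znrf3, which removes Frizzled receptors from the membrane, had 730.3 and 614 (Atoh1-GFP) against 950.1 and 933 (dNeurog1-GFP) (log2 -0.47, adjusted p = 0.13 with the block). Nkd2 and Notum had -0.36 and 0.04, and Rnf43 was below the filter.

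The windows before the starts of Nkd1 and Sp5 are shown because these were the 2 feedback genes called, in opposite directions. They lie at chr8:88527383-88527632 (plus strand) and chr2:70474673-70474922 (plus strand) (RefSeq, GRCm38.p6). Capitals mark CANNTG in both, and in Sp5 also CTTTGAT, a form of the TCF/LEF site searched on both strands.
Nkd1: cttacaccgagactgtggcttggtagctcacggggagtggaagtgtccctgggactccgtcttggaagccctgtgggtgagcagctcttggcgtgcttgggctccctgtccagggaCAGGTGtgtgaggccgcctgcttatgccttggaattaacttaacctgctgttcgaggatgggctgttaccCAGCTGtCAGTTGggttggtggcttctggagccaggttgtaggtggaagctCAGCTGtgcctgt
Sp5: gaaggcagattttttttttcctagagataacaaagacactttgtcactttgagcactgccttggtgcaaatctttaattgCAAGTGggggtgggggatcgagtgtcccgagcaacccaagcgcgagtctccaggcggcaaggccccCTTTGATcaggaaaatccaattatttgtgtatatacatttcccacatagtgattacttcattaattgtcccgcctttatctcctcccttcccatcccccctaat
The Nkd1 window held 4 E-boxes, of which 2 had the form CAGCTG, and no TCF/LEF match. The Sp5 window held 1 E-box and 1 match to the TCF/LEF form, which was found in 3.21% of all windows. Of the 8 called members with a window, 5 held an E-box (Nkd1, Sp5, Wnt3a, Wnt4 and Wnt9a), beside 66.2% of all windows. The form CAGCTG stood in 2 of the 8 (Nkd1 and Wnt9a), beside 13% of all windows, and the TCF/LEF form in 1 (Sp5). The matches describe these letters only, and binding was not measured here.

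**Figure D2:**
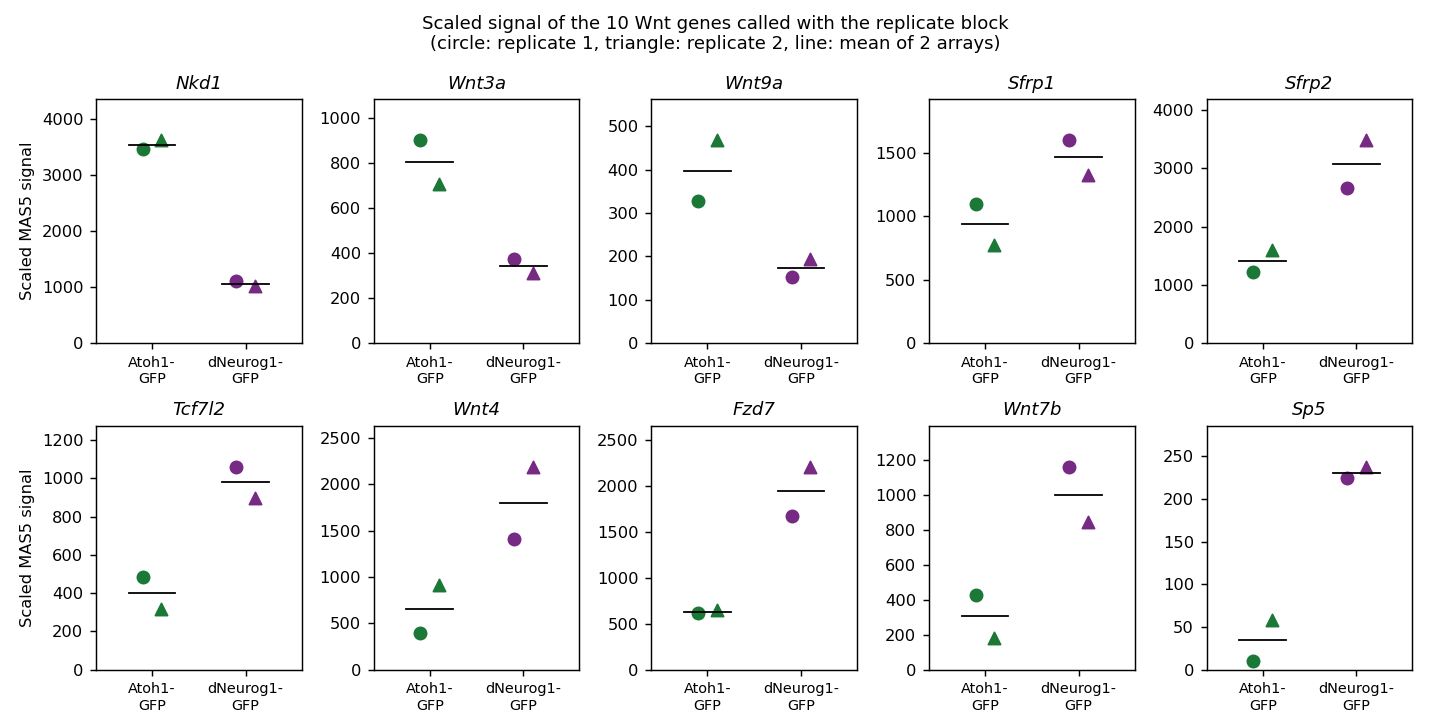
Scaled MAS5 signal on each array for the 10 Wnt genes that passed with the replicate block (green, Atoh1-GFP; purple, dNeurog1-GFP; circles, replicate 1; triangles, replicate 2; lines, means of 2 arrays). Each gene has its own vertical scale from 0, and in none of the 10 do the arrays of one line overlap those of the other.

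Within the replicate numbers, 31 of the 42 genes differed in one direction, 8 upward and 23 downward in the Atoh1-GFP population (19% and 54.8%, beside 33.3% and 33.7% of all genes), and 11 went opposite ways. All 10 called members were among the 31. The blocked model takes its residual spread from how far these 2 differences disagree, so this is no separate support for the calls. The most uneven of them were Sp5 (-2.58 and -1.58), Wnt7b (-1.37 and -2.03) and Wnt4 (-1.74 and -1.22).

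**Figure D3:**
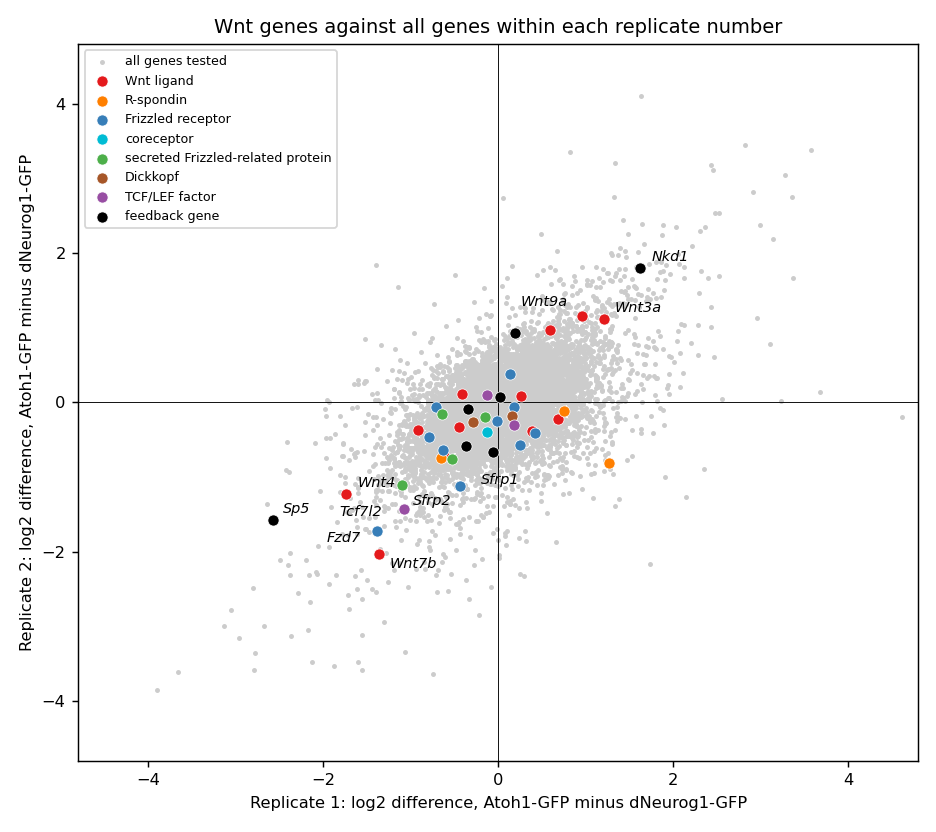
Log2 difference within replicate 1 (horizontal) against that within replicate 2 (vertical) for all 12740 genes tested (grey) and the 42 Wnt genes (coloured by role). The 10 labelled genes lie in the lower left and upper right corners, and Rspo3, at 1.27 and -0.81, lies farthest into the lower right.

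Further probe sets of the same genes were read as a check on the representatives. Of 17 members with at least 2 probe sets above the filter, the next brightest had the same direction in 15 and the opposite in 2, Fzd4 and Tcf7l1, with -0.13 and 0.15 for Fzd4 and -0.06 and 0.36 for Tcf7l1. All 4 kept probe sets of Nkd1 had positive differences, 1.71, 1.53, 1.06 and 0.76. All 5 of Sfrp1 had negative differences, from -0.89 to -0.20, as were both of Wnt4 and both of Wnt7b. Both Axin2 probe sets gave like values, 0.56 and 0.59, and all 5 of Fzd3 were above 0 in the mean, from 0.01 to 0.38. For Tcf7l2 the probe sets ran from -1.25 over -0.68 to -0.00, so its difference was not seen by every one. Probe sets of one gene share its RNA and are not replicates. With all 27022 kept probe sets tested on their own, 17 of the members' 72 passed with the block, 5 higher and 12 lower (7.98% of all probe sets passed), and 0 without it, where limma called 1 probe set in all (0.0037%). The 12 include those of Sp5, the second of Wnt7a and the second of Wnt7b, at 17.1 and 22.6 (Atoh1-GFP) against 174 and 65.4 (dNeurog1-GFP). Their Atoh1-GFP signals all lay below the filter value, so they were kept through their dNeurog1-GFP arrays alone.

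**Figure D4:**
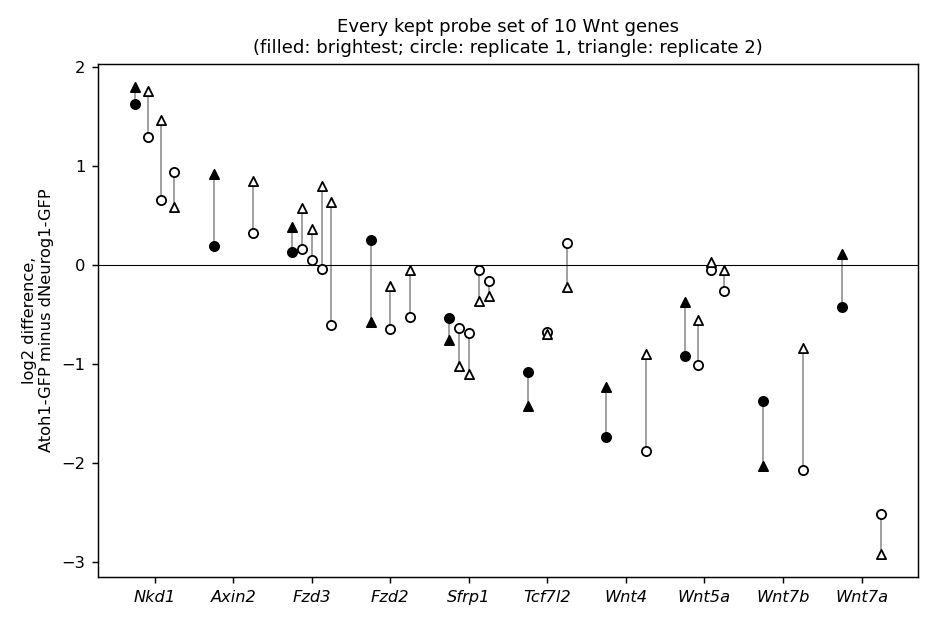
Log2 difference of every kept probe set of 10 Wnt genes, within replicate 1 (circle) and replicate 2 (triangle), with the brightest probe set filled. Nkd1 lies above 0 throughout, and the second Wnt7a probe set lies near -2.71 while the filled one lies near 0.

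The rest of the pathway was read from lists outside these members, beside 3.73% of all genes lower and 2.78% higher with the block. With the block, 1 of 10 further receptors tested was lower in Atoh1-GFP cells: Lgr4, a receptor for R-spondins, with 1164 and 1964 (Atoh1-GFP) against 3678 and 4214 (dNeurog1-GFP) (log2 -1.36, adjusted p = 0.010 with the block). Its relative Lgr5 had 147 and 51.7 (Atoh1-GFP) against 274 and 299 (dNeurog1-GFP) and did not pass (adjusted p = 0.070 with the block). Of 14 genes of Wnt secretion and further extracellular modulators, 2 were higher and 1 lower with the block. Apcdd1, a membrane-bound Wnt inhibitor, had 1758 and 2329 (Atoh1-GFP) against 970.5 and 841 (dNeurog1-GFP) (log2 1.14, adjusted p = 0.021 with the block). Draxin, a secreted axon guidance cue, was higher by 0.82, and Ndp, the Frizzled ligand norrin, had a log2 difference of -1.61. Wls and Porcn, which all Wnt secretion needs, had -0.15 and 0.10 and did not pass.

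Inside the cell, 3 of 22 genes of the Dishevelled and destruction complex list passed as higher in Atoh1-GFP cells (block) and 0 as lower: Apc2 (0.96), the neuronal relative of Apc, and Dact3 (0.83) and Cxxc5 (0.57), which bind Dishevelled. Ctnnb1, beta-catenin, did not pass (log2 0.13, adjusted p = 0.62 with the block). Of 13 TCF cofactors, Tle4, a Groucho-type corepressor, was higher (0.73), and of 14 planar polarity genes Celsr3 (0.97), an atypical cadherin of growing axons, and Ankrd6 (0.70) were. The list medians were 0.23, 0.13 and 0.07, against 0.01 over all genes. With the block 2.78% of all genes passed as higher and 3.73% as lower.

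Of 15 other reported targets of canonical Wnt signalling, the median was -0.53. With the block 6 of them passed as lower and 1 as higher in Atoh1-GFP cells, beside 3.73% and 2.78% of all genes. The lower ones were Sp8 (-1.66), Mycn (-1.09), Tnfrsf19 (-0.98), Jag1 (-0.70), and the D cyclins Ccnd1 (-0.66) and Ccnd3 (-0.64), and the higher one was Cd44 (1.31). Without the block, limma called 0 of the 87 different genes tested in these 6 lists (17 at an unadjusted p under 0.05) and 0.22% of all genes.

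**Figure D5:**
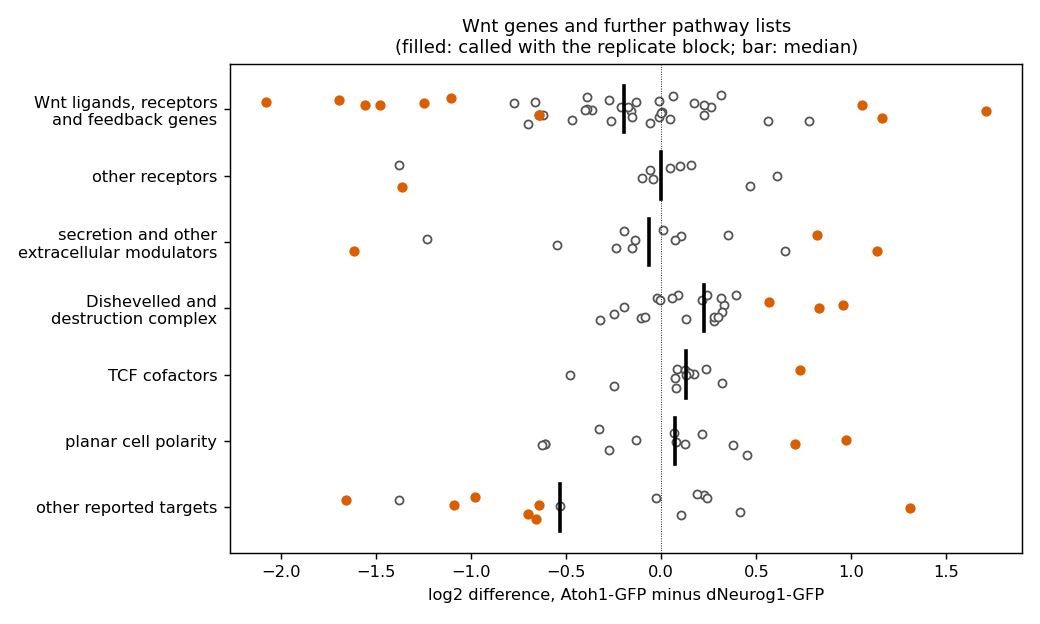
Log2 difference of each gene tested in the Wnt module and in 6 further pathway lists; filled points passed with the replicate block and bars are medians. The targets list has the lowest median, -0.53, and the Dishevelled and destruction complex list the highest, 0.23.

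Markers of cell state also differed between these samples. With the block, 6 of 10 neural progenitor markers were lower in Atoh1-GFP cells and 0 higher, with summed signals of 42383 and 33064 (Atoh1-GFP) against 61974 and 44012 (dNeurog1-GFP). Of 9 cell cycle genes 7 were lower and 0 higher, with sums of 28701 and 31535 (Atoh1-GFP) against 51086 and 51513 (dNeurog1-GFP). Of 8 newborn neuron markers 4 were higher and 0 lower, with sums of 54643 and 56732 (Atoh1-GFP) against 29983 and 39999 (dNeurog1-GFP). None of these sums overlapped between the lines, but bright genes weigh most in them. Without Fabp7, with 4411 and 2929 (Atoh1-GFP) against 13102 and 7773 (dNeurog1-GFP), the progenitor sums overlap. With the block 3.73% of all genes were lower and 2.78% higher, and without it limma called 0 genes of these 3 lists (5, 8 and 5 of them at an unadjusted p under 0.05). In such bulk samples fewer cells of a type and less RNA per cell cannot be told apart, and the part of these shifts in the Wnt differences was not tested. Of the roof plate markers 8 of 10 were on the array as single-symbol probe sets, 7 were tested and 1, Gdf10, was lower with the block. Bmp7 was higher without overlap, with 558 and 666 (Atoh1-GFP) against 325 and 381 (dNeurog1-GFP), and did not pass (limma adjusted p = 0.058 with the block). These 2 had an unadjusted p under 0.05 in limma without the block. The roof plate sums, 15452 and 11960.3 (Atoh1-GFP) against 18766 and 13011 (dNeurog1-GFP), overlapped between the lines, and Lmx1a was below the filter. Blood markers had sums of 30523 and 31671 (Atoh1-GFP) against 7752 and 22881 (dNeurog1-GFP), and 0 of the 3 tested passed in either limma model (3 at an unadjusted p under 0.05 without the block). Endothelial markers had 1725 and 719 (Atoh1-GFP) against 657 and 559.8 (dNeurog1-GFP), with 0 of 6 passing (0 at an unadjusted p under 0.05). Blocked, 1 of 4 neural crest markers and 1 of 6 ventral markers were lower and 1 of 6 muscle markers was higher in Atoh1-GFP cells. The ventral one was Olig2, with 3.8 and 7.4 (Atoh1-GFP) against 73.6 and 443 (dNeurog1-GFP). The muscle one was Myl7, with 198 and 735 (Atoh1-GFP) against 59.3 and 51.2 (dNeurog1-GFP). For each, both arrays of the lower line lay below the filter value of 63.5, so it was tested through the other line alone. The neural crest marker called was Tfap2b, with 273 and 217 (Atoh1-GFP) against 2646 and 1950.0 (dNeurog1-GFP), which makes up most of the dNeurog1-GFP neural crest sums, while Sox10, with 218 and 116 (Atoh1-GFP) against 142 and 101 (dNeurog1-GFP), and Erbb3 overlapped between the lines. Foxd3, also listed as a dI2 marker, had 133 and 94.3 (Atoh1-GFP) against 210 and 415 (dNeurog1-GFP). It was lower without overlap and did not pass (limma adjusted p = 0.10 with the block). Neural crest sums were 925 and 605 (Atoh1-GFP) against 3123 and 2841 (dNeurog1-GFP), ventral sums 594 and 507 (Atoh1-GFP) against 572 and 2167 (dNeurog1-GFP) and muscle sums 1892 and 3513 (Atoh1-GFP) against 615 and 2219 (dNeurog1-GFP). The part of these cells in the ligand and R-spondin values was not tested.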

How the data were processed

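The authors deposited linear MAS5 intensities, with a column for each array. MAS5 is the tool named in the submitters' processing notes, and the sources used here give neither its version nor its targets. Detection calls and scan dates were not used here, and the number of arrays, 4, limits the precision.

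Each array was multiplied to a trimmed mean of 500 (2% off each end). The 64 control probe sets were left out, and of 45037 others 34945 had 1 symbol in the platform annotation, 932 several and 9160 none. A gene was its brightest single-symbol probe set by the mean over the 4 scaled arrays, kept at or above the 40th percentile of all probe sets (63.5), which left 12740 genes. Models were fitted with limma 3.58.1 (lmFit, eBayes with an intensity trend) in R 4.3.3 on log2(signal + 32), with Benjamini-Hochberg adjustment over all genes and a threshold of 0.05. They were tested on simulated data with known changes and no replicate effect, with gene spreads taken either from these arrays or from the fitted prior. Directions were recovered, but the mean share of unchanged genes among the calls exceeded the threshold with the block in both kinds of simulation. Without the block it did so in the first kind. Unblocked, the model has 2 residual degrees of freedom and a median prior of 4.92, and blocked 1 and 5.11, so p-values rest largely on the spread shared across genes. They measure the spread between these samples only.

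The labels give both lines replicates 1 and 2 without saying that equal numbers share a day or litter. The block is used because equal numbers share a scaling target. The deviations of same-numbered arrays from their group means correlated at 0.66 across genes after scaling. The members, lists and tests were chosen with earlier results of these data known. Named are the members called in either model, those at least 2-fold different in both replicate numbers, the 12 brightest, the ligands tested, members whose probe sets disagree, and the called genes of the other lists or some of their largest differences. Other members, the roles beside them and single list genes were named after their values were seen. Alternatives tried were the block, the scaling, the pseudocount, the filter, the probe set, the intensity trend and leaving out each array. Combinations with the block, the choice of probe set on deposited signals and the test of single probe sets were added after seeing the data. Promoter windows came from a RefSeq table (GRCm38.p6), which held 35 of the 54 members.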

Additional observations from a re-analysis of the deposited data

How the results depend on the processing

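No member called in either model changed direction under any alternative run in which it was tested. The second probe sets of Wnt9a and Fzd7 were below the filter and not tested. Their log2 differences, on such low signals, had the opposite sign to the brightest ones (-0.50 for Wnt9a and 0.05 for Fzd7). Over all genes and without the block, 16 passed as higher and 12 as lower. These became 354 and 475 with the replicate block, 503 and 666 with the replicate block on deposited signals, 1 and 12 on deposited signals, 7 and 11 on one 75th percentile, 7 and 7 with no filter, 9 and 9 with the 60th percentile filter, 1 and 1 with the second brightest probe set, 8 and 6 with the mean of probe sets and 0 and 0 with no intensity trend. Leaving out 1 array gave 70 to 200 higher and 50 to 180 lower, with the lone array of a line assumed to vary like the others, and 1 to 2 members higher and 1 to 4 lower. Of the members, 1 higher and 0 lower became 3 and 7 with the replicate block, 3 and 8 with the replicate block on deposited signals and 0 and 1 (Wnt7a) on deposited signals. They became 0 and 0 on one 75th percentile, with no filter, with the 60th percentile filter, with the second brightest probe set, with the mean of probe sets and with no intensity trend. In the model with the block, 354 and 475 became 727 and 989 after quantile normalization, 156 and 205 with no filter and 10 and 13 with no intensity trend, where the members' 3 and 7 became 0 and 0. The other settings with the block kept the member counts within 1.5 times, but not every call. With no filter Sp5, Sfrp1 and Wnt9a were lost. With the second brightest probe set Tcf7l2 and Wnt7b were lost and Wnt7a gained, while Fzd7 and Wnt9a had theirs below the filter, and genes with 1 probe set (Sp5, Sfrp2 and Wnt3a among those called) kept it. With the mean of probe sets Sfrp1 and Tcf7l2 were lost and Wnt7a gained. With the 60th percentile filter Sp5 could not be tested, and quantile normalization added Axin2 and Fzd8. Leaving out an array with the block gives no test, since no residual degree of freedom is left. The cause of these changes was not tested. Low signals, read here without detection calls, limit what can be said of the 12 members below the filter.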
